A study of Mus musculus with 12 samples.

Results

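Expression of 45 genes of the DNA replication machinery was followed in MLL-AF9 leukaemia cells through chemotherapy. The set runs from the proteins that mark replication origins to the enzymes that join finished strands. Its members were listed by gene name, with earlier results of these data known. It holds 45 of the 24881 gene entries with a usable value in every library. Each of the 45 had a single entry, and all 45 were tested, among 11019 genes for which 3 or more of the 12 libraries reached an FPKM of 1. FPKM relates the fragments of a gene to its transcript length and to the total of the library. Levels can then be compared only roughly between genes and between mice, since a change in abundant genes shifts the others. In every group the leukaemia was MLL-AF9 transgenic and marked by GFP, and the cells were sorted from bone marrow by that mark. MLL-AF9 is the product of a chromosome translocation found in human myeloid leukaemia. The relapse group (n = 4) was sampled 10 days after the end of induction chemotherapy with doxorubicin and cytarabine, and the iCT group (n = 3) was sampled 3 days after it. The vehicle group (n = 5) received vehicle in place of the drugs. Each library came from 1 mouse. The promoter of the transgene, the strain, age and sex of the mice and the number of leukaemia clones were not given in the sources used here. A day of sampling was not given for the vehicle mice, and the same vehicle mice served both comparisons.

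Replication is prepared in G1, when the origin recognition complex (ORC) binds DNA and, with Cdc6 and Cdt1, loads the MCM2-7 helicase in an inactive form. A pair of kinases, the Dbf4-dependent kinase Cdc7 and cyclin E or A with its CDK, then fire the origin by recruiting Cdc45, the GINS complex and Mcm10. Polymerase alpha-primase lays down primers, polymerases epsilon and delta copy the leading and lagging strands, and PCNA, loaded by replication factor C, holds them on the template. Most of these genes are switched on by E2F factors as cells enter S phase and are silenced by p53 through Cdkn1a (p21) and the DREAM repressor complex. Cytarabine, once phosphorylated, is built into new DNA and stalls polymerases, and doxorubicin traps topoisomerase II on DNA, so both drugs act on dividing cells.

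Few replication genes passed the test in any comparison. In iCT against vehicle 1 member was called higher (Fen1) and 1 lower (Prim2) by limma at an adjusted p under 0.05. These are 2.22% of the members each, where 3.31% of all genes tested were higher and 6.31% lower. In relapse against vehicle 0 of 45 members were called, as were 0 of all 11019 genes (0%). In relapse against iCT 4 members were higher (8.89%; Pole, Pold1, Lig1 and Rfc2) and 0 lower, where 6.62% of all genes were higher and 3.1% lower. These shares rest on few calls and lie near those of all genes. The 3 groups shared 1 estimate of spread in this fit, though the median SD of all genes was 0.37 in iCT, 0.16 in relapse and 0.20 in vehicle. A fit of relapse and vehicle alone called 3 members (6.67%) and 5.65% of all genes. Fits of iCT with vehicle alone and of relapse with iCT alone called 0 members each, and 3.27% and 2.35% of all genes. Calls in every comparison thus depend on which groups enter the fit.

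Libraries differed in depth, and 1 stood apart. The confidence intervals in the files implied 2780819 to 7484368 fragments in the relapse libraries and 1225254 to 6171368 in the vehicle libraries. Of the iCT libraries, mouse 1 rested on 361914 implied fragments and mice 2 and 3 on 8359793 and 6227708. The median member rested on 29.0 fragments in iCT mouse 1, against 100.1 to 605.3 in the other 11 libraries, so iCT values that move with that mouse are also given without it. Among markers of the sorted cells, the 10 genes of the leukaemia and myeloid progenitor list summed to 11600 to 16200 FPKM in relapse, 13200 to 17900 in iCT and 13400 to 16600 in vehicle. All 10 were tested, with 0 called higher and 2 lower in iCT than in vehicle, and 2 higher and 1 lower in relapse than in iCT. Kit, the stem cell factor receptor in that list, stood at 26.9 to 39.4 FPKM in relapse, 5.6 to 8.72 in iCT and 24.3 to 27.5 in vehicle. Cd34 was also lower in iCT (22.3 to 30.1 FPKM) than in vehicle (75.2 to 122). Hoxa9 (55.8 to 75.8 against 41.7 to 59.7 FPKM) and Ctsg (2930 to 3930 against 2500 to 2830 FPKM) were not.

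Marker lists of other cells also differed between the groups. The 8 tissue macrophage genes summed to 39.8 to 52.2 FPKM in relapse, 119 to 246 in iCT and 60.8 to 101 in vehicle, and 5 of the 6 tested were higher in iCT than in vehicle. The 6 osteoclast genes summed to 14.3 to 76 FPKM in relapse, 141 to 662 in iCT and 11.7 to 26.6 in vehicle, and all 5 tested were higher in iCT. The 8 mature neutrophil genes summed to 3870 to 8900 FPKM in relapse, 7710 to 11000 in iCT and 2480 to 9010 in vehicle. Of the 8 tested, 2 were called higher and 0 lower in iCT than in vehicle. S100a8 made up most of each sum, at 5910 to 8880 FPKM in iCT and 1720 to 6090 in vehicle. Retnlg stood at 5.92 to 46.1 FPKM in iCT and 16.6 to 190 in vehicle, and Ltf at 35.7 to 71.9 and 11.4 to 211. The 9 entries of the erythroid list summed to 46.6 to 164 FPKM in relapse, 5.31 to 13.5 in iCT and 14.8 to 410 in vehicle, with 3 of 6 tested lower in iCT. Megakaryocyte genes (4) summed to 2.19 to 4.69, 9.94 to 26.1 and 1.65 to 7.26 FPKM in relapse, iCT and vehicle, with 1 of 2 tested higher in iCT. B lineage and plasma genes (5) summed to 2.32 to 8.38, 13.9 to 18.3 and 0.623 to 12.4 FPKM, with 0 of 2 tested called. Stromal and endothelial genes (7) summed to 12.3 to 27.3, 10.9 to 18.9 and 12 to 38.2 FPKM, with 1 of 4 tested lower in iCT, and of these Pecam1 had 10.9 to 20.5, 3.58 to 7.65 and 9.12 to 13 FPKM, while Kdr and Cdh5 were at or below 0.197 FPKM in every library. The 5 T and NK cell genes summed to at most 2.53 FPKM in any library. Their part in the results on iCT below was not tested, and in sorted bulk RNA fewer cells of a type and less RNA per cell cannot be told apart.

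Replication genes spanned a wide range of levels in untreated leukaemia. Vehicle means ran between 5.08 and 501 FPKM over the 45 members, with a median of 49.6. In 39 members the vehicle mean was at least 10 FPKM, and in 7 it was at least 100. Pcna, the sliding clamp, was the highest, followed by Mcm7, Mcm6, Mcm5 and Mcm3. Orc1 and Cdc7 were the lowest, at 5.08 ± 1.15 and 5.18 ± 0.624 FPKM (SD, n = 5), a difference within their spread. Mice agreed well, with a coefficient of variation among vehicle mice of 5.83 to 24.8% and a median of 11.2%. On the log2 scale the median SD of a member was 0.13 in relapse, 0.28 in iCT and 0.16 in vehicle, against 0.16, 0.37 and 0.20 for all genes, and it was 0.19 in iCT without mouse 1.

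**Figure D1:**
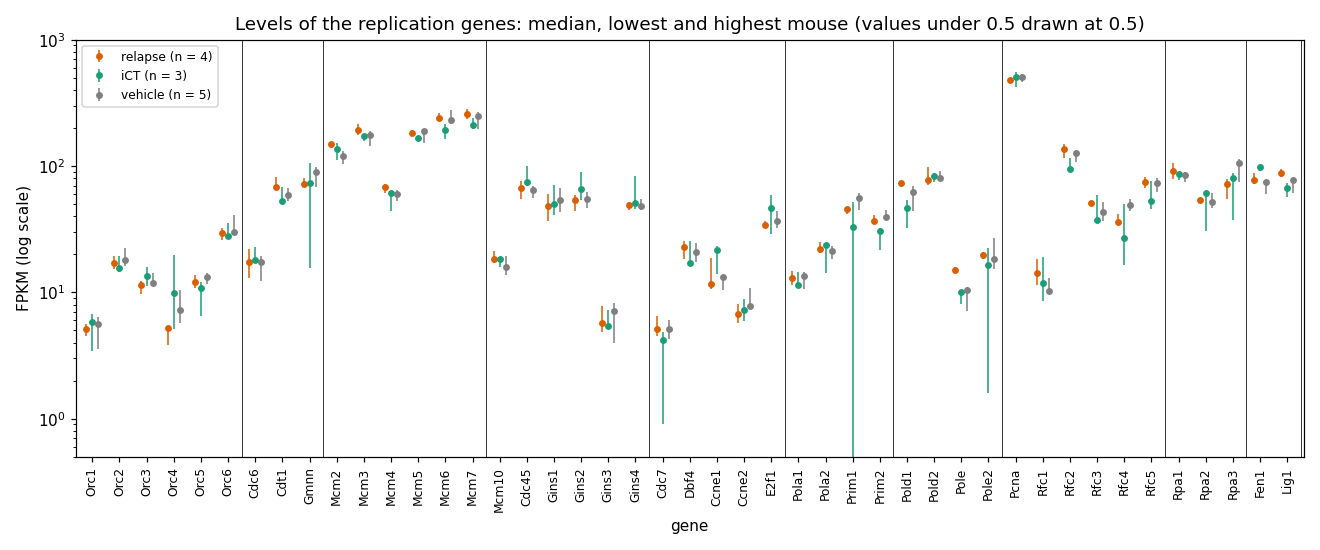
Level of each replication gene in FPKM on a log axis, in order of role, with the median mouse as a point and the lowest and highest mouse as the ends of the line for relapse (n = 4), iCT (n = 3) and vehicle (n = 5). Most lines overlap. The long iCT lines of Prim1, Cdc7, Pole2 and Gmnn end at the shallow library, iCT mouse 1.

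Promoters of the set often held E2F-type letters. RefSeq windows of 300 bases (GRCm38.p6, 250 before to 50 after a start site) were at hand for 36 of the 45 members. Ccne2, Gins1, Gins2, Gins4, Gmnn, Mcm4, Pole, Prim2 and Rfc2 were not matched. The letters TTTCCCGC, TTTCGCGC, TTTGCCGC or TTTGGCGC, searched on both strands, occurred in 14 of 36 members (38.9%), against 704 of 27025 genes (2.6%) with a window. The 14 were Orc1, Orc3, Cdc6, Cdt1, Mcm3, Mcm5, Mcm6, Mcm7, Gins3, Pola1, Pold1, Pole2, Rfc3 and Lig1. They held 20 matches, some overlapping each other, of which 13 began between 100 bases before and 50 after the start. The shorter letters TTTGAA, those of the CHR element bound by DREAM, occurred on either strand in 7 of 36 members (19.4%), against 20.2% of genes. A match describes the letters only and is not evidence of binding.

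The windows of Pold1, Lig1 and Fen1 are shown because these 3 genes passed the test in a comparison below and have a window. Capitals mark the E2F-type letters on either strand, and each sequence runs 5′ to 3′ along the gene. Pold1 lies at chr7:44548766-44549065, minus strand, Lig1 at chr7:13278576-13278875, plus strand and Fen1 at chr19:10203872-10204171, minus strand. In the Pold1 and Lig1 windows the letters stand just after the start site, and the window of Fen1 holds none. For genes with several windows, a window with a match was shown where present. The Lig1 window lies inside the listed Lig1 locus, which starts at 13277313, and does not cover its first base.
Pold1: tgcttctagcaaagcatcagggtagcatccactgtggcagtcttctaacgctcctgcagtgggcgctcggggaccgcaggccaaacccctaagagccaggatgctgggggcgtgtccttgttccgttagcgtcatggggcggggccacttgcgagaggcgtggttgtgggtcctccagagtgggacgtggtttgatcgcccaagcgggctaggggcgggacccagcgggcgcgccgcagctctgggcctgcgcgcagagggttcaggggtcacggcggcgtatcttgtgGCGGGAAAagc
Lig1: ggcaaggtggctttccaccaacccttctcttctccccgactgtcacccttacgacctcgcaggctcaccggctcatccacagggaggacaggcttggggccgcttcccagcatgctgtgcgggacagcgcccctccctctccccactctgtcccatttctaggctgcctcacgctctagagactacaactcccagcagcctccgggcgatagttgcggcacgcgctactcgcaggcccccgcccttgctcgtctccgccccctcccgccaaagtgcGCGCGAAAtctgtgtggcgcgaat
Fen1: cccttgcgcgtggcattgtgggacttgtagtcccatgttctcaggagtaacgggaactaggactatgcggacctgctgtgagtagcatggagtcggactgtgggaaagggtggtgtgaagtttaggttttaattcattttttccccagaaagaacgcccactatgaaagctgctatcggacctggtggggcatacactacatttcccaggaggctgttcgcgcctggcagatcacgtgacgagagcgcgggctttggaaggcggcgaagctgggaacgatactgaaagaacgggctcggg

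Stretches of 60 bases around a match are shown for licensing and helicase genes and for the catalytic subunit of polymerase alpha, to compare where the letters fall. Orc1 is at chr4:108579401-108579460, plus strand. Cdc6 is at chr11:98907987-98908046, plus strand. Cdt1 is at chr8:122568005-122568064, plus strand. Mcm3 is at chr1:20820263-20820322, minus strand. Mcm5 is at chr8:75109334-75109393, plus strand. Mcm6 is at chr1:128359719-128359778, minus strand. Mcm7 is at chr5:138171834-138171893, minus strand. Pola1 is at chrX:93632260-93632319, minus strand. Mcm3 holds 2 matches on opposite strands, and in Mcm5 a pair on opposite strands overlaps in 1 run.
Orc1: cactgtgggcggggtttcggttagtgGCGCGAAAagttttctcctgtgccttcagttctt
Cdc6: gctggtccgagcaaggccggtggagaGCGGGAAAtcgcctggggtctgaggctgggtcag
Cdt1: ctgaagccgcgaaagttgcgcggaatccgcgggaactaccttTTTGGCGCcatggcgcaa
Mcm3: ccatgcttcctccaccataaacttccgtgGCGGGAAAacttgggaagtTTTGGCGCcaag
Mcm5: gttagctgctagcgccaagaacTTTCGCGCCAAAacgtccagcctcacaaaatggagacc
Mcm6: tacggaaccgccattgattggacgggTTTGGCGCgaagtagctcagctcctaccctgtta
Mcm7: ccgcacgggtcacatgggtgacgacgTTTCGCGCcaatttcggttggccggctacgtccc
Pola1: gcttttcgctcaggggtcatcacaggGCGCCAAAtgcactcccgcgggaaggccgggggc

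The origin recognition complex has 6 subunits, Orc1 to Orc6, and none was called in any comparison. Orc1, the subunit whose level in many mammalian cells cycles with G1, had 5.57, 5.19, 4.52 and 5.08 FPKM in relapse mice 1 to 4, 3.42, 6.71 and 5.79 FPKM in iCT mice 1 to 3, and 3.59, 5.71, 4.16, 5.61 and 6.33 FPKM in vehicle mice 1 to 5. The relapse mice lay inside the vehicle range, and iCT mice fell on both sides of it. Its log2 change was 0.04 in iCT against vehicle (95% interval -0.42 to 0.49) and 0.02 in relapse against vehicle (-0.40 to 0.44), and without iCT mouse 1 the first of these was 0.27. Orc4, a core ATPase subunit, had 5.34, 5.31, 3.85 and 5.21 FPKM in relapse mice 1 to 4, 19.6, 9.93 and 5.15 FPKM in iCT mice 1 to 3, and 8.59, 5.74, 10.4, 6.79 and 7.31 FPKM in vehicle mice 1 to 5. All 4 relapse mice were below all 5 vehicle mice, while iCT mice ranged over both groups. Orc4 in iCT mouse 1 rested on 10 implied fragments. The log2 change of Orc4 was -0.55 in relapse against vehicle (adjusted p = 0.406, limma) and -0.92 in relapse against iCT (adjusted p = 0.0894), or -0.48 without iCT mouse 1. The other 4 subunits, Orc2, Orc3, Orc5 and Orc6, had log2 changes between -0.40 (Orc5) and 0.12 (Orc3) in iCT against vehicle and between -0.17 (Orc6) and -0.09 (Orc5) in relapse against vehicle. The change of Orc5 in iCT against vehicle was -0.16 without iCT mouse 1.

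Licensing is limited by Cdc6 and Cdt1, which load the helicase, and by geminin (Gmnn), which binds Cdt1 and blocks reloading within a cycle. Cdc6 had 19.3, 15.3, 12.9 and 22.2 FPKM in relapse mice 1 to 4, 22.8, 17.9 and 17.3 FPKM in iCT mice 1 to 3, and 12.3, 15.3, 19.4, 17.4 and 18.3 FPKM in vehicle mice 1 to 5. The 3 groups overlapped, with iCT mouse 1 the highest of the 12. Cdt1 had 67.5, 68.7, 67.2 and 82.1 FPKM in relapse mice 1 to 4, 53.2, 52 and 68.3 FPKM in iCT mice 1 to 3, and 53, 66.4, 56.2, 62.8 and 58.9 FPKM in vehicle mice 1 to 5. All 4 relapse mice were above all 5 vehicle mice, mouse 4 the highest, and iCT mouse 3 reached the relapse range. The log2 change of Cdt1 in relapse against vehicle was 0.26 (SE 0.11, adjusted p = 0.305, limma), which did not pass. Gmnn had 69.9, 80.4, 73.7 and 68.4 FPKM in relapse mice 1 to 4, 15.5, 105 and 73.9 FPKM in iCT mice 1 to 3, and 93.7, 98.2, 67.9, 81.7 and 88.9 FPKM in vehicle mice 1 to 5. Relapse mice sat in the lower part of the vehicle range, and iCT mice 1 and 2 were the lowest and highest of all 12. Gmnn in iCT mouse 1 rested on 5 implied fragments, and its log2 change in iCT against vehicle was -0.77 with that mouse and 0.04 without it.

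The MCM2-7 helicase unwinds the template, and 5 of its 6 subunits, all but Mcm4, were among the 7 most abundant members in vehicle. Mcm2 had 149, 153, 149 and 139 FPKM in relapse mice 1 to 4, 152, 111 and 137 FPKM in iCT mice 1 to 3, and 103, 119, 123, 132 and 109 FPKM in vehicle mice 1 to 5. Relapse mice were all above the vehicle mice, and iCT mice overlapped both. Its log2 change was 0.33 in relapse against vehicle (SE 0.10, adjusted p = 0.191, limma). Mcm5 had 179, 194, 189 and 176 FPKM in relapse mice 1 to 4, 167, 168 and 173 FPKM in iCT mice 1 to 3, and 151, 194, 193, 188 and 167 FPKM in vehicle mice 1 to 5. The iCT mice lay below every relapse mouse and inside the vehicle range. Mcm6 had 241, 238, 226 and 262 FPKM in relapse mice 1 to 4, 164, 216 and 194 FPKM in iCT mice 1 to 3, and 216, 232, 277, 228 and 232 FPKM in vehicle mice 1 to 5. The iCT mice were below all mice of both other groups, although iCT mouse 2 and vehicle mouse 1 round to the same value. Its log2 change was -0.31 in iCT against vehicle (SE 0.11, adjusted p = 0.0811) and 0.34 in relapse against iCT (SE 0.11, adjusted p = 0.0708), or -0.20 and 0.24 without iCT mouse 1. Across the complex, Mcm2 to Mcm7 had positive log2 changes in 6 of 6 subunits in relapse against iCT, between 0.12 (Mcm5) and 0.34 (Mcm6), and none passed. The median of all genes in that comparison was 0.16. The count stayed 6 of 6 with median-of-ratios scaling (0.01 to 0.22) and without iCT mouse 1 (0.10 to 0.26). Most genes were above 0 in these settings too, 6130 of 10986 and 6976 of 10961. In relapse against vehicle the count was 6 of 6 (0.03 to 0.33), where the median of all genes was 0.06. The count there was 4 of 6 with median-of-ratios scaling and 5 of 6 with length and GC trends removed. Of all genes, 5406 of 10986 and 6969 of 11019 were above 0 with that scaling and with those trends removed. In iCT against vehicle 1 of 6 was above 0, where the median of all genes was -0.08. Between subunits, vehicle means were highest for Mcm7 (241 FPKM) and lowest for Mcm4 (59.0 FPKM), a ratio of 4.08.

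Helicase activation adds Cdc45 and the 4 GINS proteins to MCM2-7, with Mcm10 as a further activator, and none of the 6 genes was called. Cdc45 had 65.3, 75.8, 68.5 and 55.2 FPKM in relapse mice 1 to 4, 99.9, 70 and 75.1 FPKM in iCT mice 1 to 3, and 63.4, 55.9, 64, 69.8 and 65.2 FPKM in vehicle mice 1 to 5. The 3 iCT mice were above all vehicle mice, by a narrow margin for iCT mouse 2, and relapse mice spread over both. Its log2 change in iCT against vehicle was 0.34 (SE 0.13, adjusted p = 0.112, limma), or 0.19 without iCT mouse 1. Mcm10 had 21.2, 18.4, 17.1 and 18.5 FPKM in relapse mice 1 to 4, 18.3, 19.2 and 15.8 FPKM in iCT mice 1 to 3, and 13.6, 14.7, 19.5, 15.9 and 17.2 FPKM in vehicle mice 1 to 5. Its groups overlapped. Gins1, Gins2, Gins3 and Gins4 had log2 changes of -0.01, 0.30, -0.09 and 0.22 in iCT against vehicle, with adjusted p of 0.221 to 0.981. These were -0.22, 0.11, -0.03 and -0.03 without iCT mouse 1. Gins2 and Gins4 were highest of all in iCT mouse 1, at 89.1 and 82.8 FPKM on 29.1 and 39.5 implied fragments. In relapse against vehicle the GINS changes lay between -0.14 (Gins1) and -0.01 (Gins4).

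Firing depends on Cdc7 with its activator Dbf4 and on cyclin E, encoded by Ccne1 and Ccne2. Cdc7 had 5.56, 4.66, 4.55 and 6.53 FPKM in relapse mice 1 to 4, 0.906, 4.84 and 4.22 FPKM in iCT mice 1 to 3, and 4.29, 5.07, 5.35, 5.14 and 6.03 FPKM in vehicle mice 1 to 5. Apart from iCT mouse 1, which rested on 0.2 implied fragments, the groups overlapped. Dbf4 had 25.5, 22.7, 18.3 and 22.9 FPKM in relapse mice 1 to 4, 17.2, 25.6 and 17.2 FPKM in iCT mice 1 to 3, and 20.6, 17.5, 24.4, 20.9 and 23.1 FPKM in vehicle mice 1 to 5. Its 3 groups overlapped throughout. Ccne1 had 18.7, 12.4, 10.7 and 11 FPKM in relapse mice 1 to 4, 23.3, 21.7 and 14 FPKM in iCT mice 1 to 3, and 10.4, 13.2, 13.3, 13.3 and 12.4 FPKM in vehicle mice 1 to 5. All 3 iCT mice were above all 5 vehicle mice, and relapse mouse 1 lay with the iCT mice. The log2 change of Ccne1 was 0.59 in iCT against vehicle (SE 0.20, adjusted p = 0.0805, limma), the highest of the 45 members, and 0.45 without iCT mouse 1. Ccne2 had 8.12, 6.57, 5.75 and 7 FPKM in relapse mice 1 to 4, 5.96, 8.89 and 7.28 FPKM in iCT mice 1 to 3, and 8.86, 7.54, 10.8, 7.68 and 7.74 FPKM in vehicle mice 1 to 5. Here 3 of 4 relapse mice were below the vehicle range, and iCT mice overlapped it. Its log2 change in relapse against vehicle was -0.27 (adjusted p = 0.443), and 0.05 once length and GC trends were removed. E2f1, the transcription factor that drives S-phase entry, had 34.1, 34.1, 33.3 and 36.8 FPKM in relapse mice 1 to 4, 59.3, 29.1 and 46.2 FPKM in iCT mice 1 to 3, and 36.2, 43.9, 37.8, 36.7 and 32.2 FPKM in vehicle mice 1 to 5. The relapse mice lay within the vehicle range, and the iCT mice spread to both sides of it. Its log2 change in iCT against vehicle was 0.21 (95% interval -0.18 to 0.60), or -0.02 without iCT mouse 1.

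Polymerase alpha-primase starts each strand, with primase subunits Prim1 and Prim2 and polymerase subunits Pola1 and Pola2. Prim2 (chromosome 1, 33453808 to 33669794, minus strand, GRCm38), the large primase subunit, had 36.3, 37, 36.4 and 40.9 FPKM in relapse mice 1 to 4, 21.7, 32.3 and 30.8 FPKM in iCT mice 1 to 3, and 45.2, 39.1, 43.2, 38.1 and 39.3 FPKM in vehicle mice 1 to 5. Every iCT mouse was below every relapse and vehicle mouse, and iCT mouse 1 was the lowest. Prim2 fell to 28.2 ± 5.73 FPKM in iCT (SD, n = 3), against 41 ± 3.05 in vehicle (n = 5), a log2 change of -0.54 (SE 0.13, 95% interval -0.82 to -0.26, adjusted p = 0.0229, limma). Without iCT mouse 1 the change of Prim2 was -0.37 (adjusted p = 0.0503), and without vehicle mouse 3 it was -0.52 (adjusted p = 0.051). Relapse mice averaged 37.7 ± 2.17 FPKM (SD, n = 4), a log2 change of 0.42 against iCT (adjusted p = 0.0641) and -0.12 against vehicle (adjusted p = 0.699). Prim1, the catalytic primase subunit, had 47.5, 45.4, 41.9 and 45.7 FPKM in relapse mice 1 to 4, 0, 52.1 and 33.1 FPKM in iCT mice 1 to 3, and 61.3, 45.1, 58.7, 48 and 55.8 FPKM in vehicle mice 1 to 5. It was listed at 0 in iCT mouse 1, and its iCT against vehicle change was -0.36 (adjusted p = 0.228) without that mouse. Pola1, the catalytic polymerase subunit, had 13, 14.7, 11.4 and 13.2 FPKM in relapse mice 1 to 4, 14.5, 11.5 and 10.8 FPKM in iCT mice 1 to 3, and 14.6, 11, 13.5, 10.6 and 14.1 FPKM in vehicle mice 1 to 5. All groups overlapped for Pola1. Pola2 had log2 changes of -0.06 in iCT against vehicle (0.18 without iCT mouse 1) and 0.07 in relapse against vehicle.

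Polymerase epsilon (Pole, Pole2) copies the leading strand and polymerase delta (Pold1, Pold2) the lagging strand, and the 2 catalytic subunits were called in relapse against iCT. Pole (chromosome 5, 110286319 to 110337453, plus strand) had 14.9, 14.9, 14.4 and 16 FPKM in relapse mice 1 to 4, 10.1, 8.05 and 10.3 FPKM in iCT mice 1 to 3, and 7.15, 9.86, 11, 10.9 and 10.4 FPKM in vehicle mice 1 to 5. All 4 relapse mice were above all 8 others, and iCT and vehicle mice overlapped. Pole rose to 15.1 ± 0.659 FPKM in relapse (SD, n = 4), against 9.48 ± 1.24 in iCT (n = 3), a log2 change of 0.62 (SE 0.16, adjusted p = 0.0271, limma), and 0.67 (adjusted p = 0.0344) without iCT mouse 1. Against vehicle, at 9.85 ± 1.57 FPKM (n = 5), the log2 change in relapse was 0.58 (SE 0.14, 95% interval 0.28 to 0.87, unadjusted p = 0.00105), and the adjusted p of 0.173 did not pass. Pold1 (chromosome 7, 44532744 to 44548815, minus strand) had 76.7, 72.7, 67.6 and 73.7 FPKM in relapse mice 1 to 4, 32.1, 46.6 and 53.9 FPKM in iCT mice 1 to 3, and 43.8, 69.1, 52.1, 69.3 and 62.3 FPKM in vehicle mice 1 to 5. Relapse mice were above all iCT mice but overlapped the vehicle mice, and iCT and vehicle mice overlapped. Pold1 rose to 72.7 ± 3.82 FPKM in relapse (n = 4), against 44.2 ± 11.1 in iCT (SD, n = 3), a log2 change of 0.74 (SE 0.18, adjusted p = 0.0278), and 0.53 (adjusted p = 0.0797) without iCT mouse 1. The accessory subunit Pold2 had a log2 change of -0.03 in relapse against iCT (95% interval -0.30 to 0.24). Pole2 stood at 1.61 FPKM in iCT mouse 1, on 1 implied fragment, and its change in relapse against iCT was 1.02 (adjusted p = 0.232), or 0.04 without that mouse.

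The clamp Pcna tethers polymerases, and the loader Rfc1 to Rfc5 places it. Pcna had 498, 482, 469 and 463 FPKM in relapse mice 1 to 4, 511, 555 and 422 FPKM in iCT mice 1 to 3, and 462, 510, 538, 513 and 484 FPKM in vehicle mice 1 to 5. All groups overlapped, and its log2 changes were -0.02 in iCT against vehicle (95% interval -0.23 to 0.18) and -0.07 in relapse against vehicle (-0.25 to 0.12). Rfc2 (chromosome 5, 134582690 to 134598328, plus strand), a loader subunit, had 147, 127, 115 and 149 FPKM in relapse mice 1 to 4, 95, 115 and 93.4 FPKM in iCT mice 1 to 3, and 108, 133, 127, 132 and 126 FPKM in vehicle mice 1 to 5. Relapse mice were above all iCT mice, with relapse mouse 3 and iCT mouse 2 rounding to the same value, and overlapped the vehicle mice. Rfc2 rose to 135 ± 16.3 FPKM in relapse (SD, n = 4), against 101 ± 11.9 in iCT (n = 3), a log2 change of 0.41 (SE 0.12, adjusted p = 0.0492, limma), and 0.37 (adjusted p = 0.115) without iCT mouse 1. Rfc4 had 36.1, 41.9, 35.5 and 34.9 FPKM in relapse mice 1 to 4, 16.6, 50.2 and 27.1 FPKM in iCT mice 1 to 3, and 53.9, 48.9, 54.7, 43.7 and 46.5 FPKM in vehicle mice 1 to 5. All relapse mice were below all vehicle mice, and iCT mice ranged on both sides, mouse 1 resting on 6.1 implied fragments. The log2 change of Rfc4 was -0.78 in iCT against vehicle (adjusted p = 0.0645), or -0.41 without iCT mouse 1, and -0.41 in relapse against vehicle (adjusted p = 0.442). Rfc1, Rfc3 and Rfc5 had log2 changes of 0.19, 0.23 and 0.38 in relapse against iCT, none called, or 0.48, 0.10 and 0.23 without iCT mouse 1. Of the 5 loader subunits, Rfc2 was the 1 that passed in a comparison.

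Replication protein A coats single strands, and the smallest of its 3 subunits, Rpa3, had 78.4, 76.7, 55.3 and 66 FPKM in relapse mice 1 to 4, 88.2, 79.7 and 37.4 FPKM in iCT mice 1 to 3, and 114, 78.6, 112, 75.1 and 105 FPKM in vehicle mice 1 to 5. The groups overlapped, and iCT mouse 3 was the lowest of the 12. Its log2 changes were -0.57 in iCT against vehicle (adjusted p = 0.152, limma) and -0.47 in relapse against vehicle (adjusted p = 0.374). Rpa1 and Rpa2 had log2 changes between -0.09 and 0.11 in these comparisons, and none of the 3 genes passed. With iCT mouse 1 left out, the iCT against vehicle changes of Rpa3, Rpa2 and Rpa1 were -0.79 (adjusted p = 0.0944), 0.24 and -0.01.

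Okazaki fragments, the short pieces of the lagging strand, are trimmed by the flap endonuclease Fen1 and sealed by DNA ligase 1 (Lig1), and each was called in 1 comparison. Fen1 (chromosome 19, 10199132 to 10203943, minus strand) had 80.9, 87.9, 74.5 and 72.6 FPKM in relapse mice 1 to 4, 90.9, 97.6 and 101 FPKM in iCT mice 1 to 3, and 60.2, 75.2, 76.6, 77.7 and 71.3 FPKM in vehicle mice 1 to 5. Every iCT mouse was above every relapse and vehicle mouse, and relapse and vehicle mice overlapped. Fen1 rose to 96.6 ± 5.24 FPKM in iCT (SD, n = 3), against 72.2 ± 7.10 in vehicle (n = 5), a log2 change of 0.42 (SE 0.10, 95% interval 0.19 to 0.65, adjusted p = 0.0274, limma), and 0.46 (adjusted p = 0.0363) without iCT mouse 1. It was not called without vehicle mouse 5 (adjusted p = 0.059) or iCT mouse 3 (adjusted p = 0.0598). In relapse, at 79.0 ± 6.94 FPKM (SD, n = 4), the change against iCT was -0.29 (adjusted p = 0.109), which passed with median-of-ratios scaling (-0.41, adjusted p = 0.0282). Lig1 (chromosome 7, 13277313 to 13311427, plus strand) had 91.9, 82.2, 84 and 94.1 FPKM in relapse mice 1 to 4, 56.5, 73.9 and 66.6 FPKM in iCT mice 1 to 3, and 60.7, 70.4, 77.9, 77.2 and 77.5 FPKM in vehicle mice 1 to 5. All relapse mice were above all 8 others, and iCT and vehicle mice overlapped. Lig1 rose to 88 ± 5.83 FPKM in relapse (SD, n = 4), against 65.7 ± 8.72 in iCT (n = 3), a log2 change of 0.42 (SE 0.12, adjusted p = 0.0429), and 0.32 (adjusted p = 0.12) without iCT mouse 1. Against vehicle, at 72.7 ± 7.42 FPKM (n = 5), the change was 0.28 (adjusted p = 0.254).

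**Figure D2:**
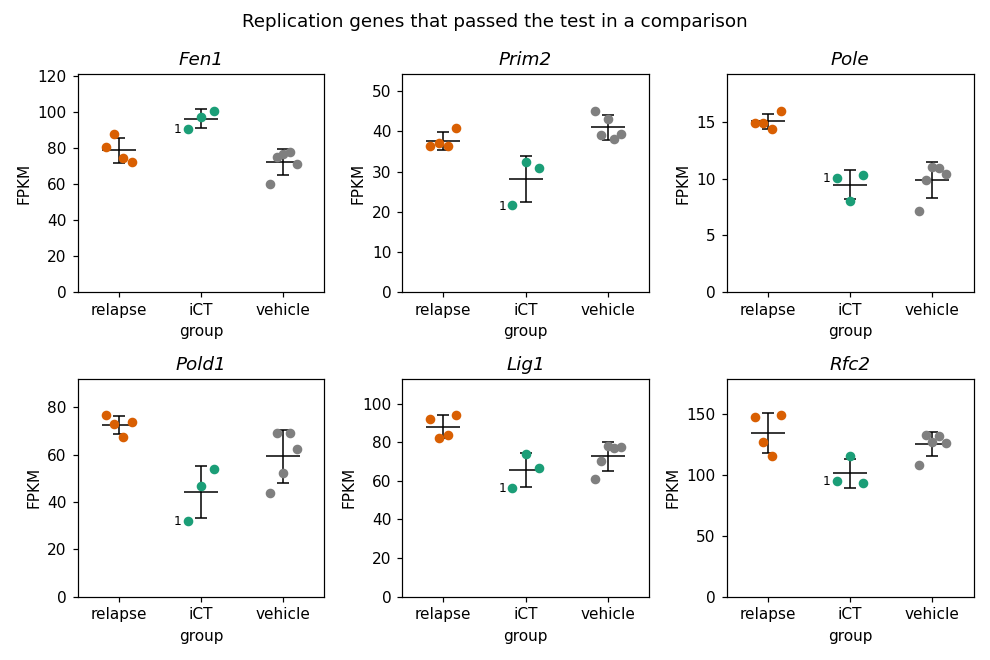
FPKM of the 6 replication genes that passed the test in a comparison, 1 point per mouse, with the group mean as a bar and the SD as the error bar for relapse (n = 4), iCT (n = 3) and vehicle (n = 5), and iCT mouse 1 marked 1. Fen1 is highest and Prim2 lowest in iCT, and Pole and Lig1 are highest in relapse in every mouse.

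The comparison of iCT, at 3 days after chemotherapy, with vehicle asked how replication genes stood in the cells that remained. The median log2 change of the 45 members was -0.06 (interquartile range -0.31 to 0.12), against -0.08 for all genes tested (-0.39 to 0.19). Of the members 15 of 45 were above 0, and most of all genes were below it. With median-of-ratios scaling 19 of 45 members were above 0, where 5037 of 10986 genes were. In 3 members (Ccne1, Cdc45 and Fen1) every iCT mouse was above every vehicle mouse, 6.67% of members against 5.49% of all genes. In 2 members (Mcm6 and Prim2) every iCT mouse was below, 4.44% against 10.6% of all genes. At an unadjusted p under 0.05, 13 members differed (28.9%), near the 29.8% of all genes. Without iCT mouse 1, every remaining iCT mouse was above all vehicle mice in 5 members (11.1%; 9.28% of all genes), Pola2 and Rpa2 added, and below them in the same 2 (4.44%; 14.1% of all genes). All 11019 genes gave 365 called higher and 695 lower, or 496 and 615 with median-of-ratios scaling, and the members' calls were the same 2 there. Without iCT mouse 2 the test called 13 members (28.9%), Fen1 and Prim2 among them, and 24.8% of all genes. A fit of these groups alone called 0 members and 3.27% of all genes.

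The comparison of relapse, at 10 days, with the same vehicle mice asked how these genes stood in regrown leukaemia. The median log2 change of the members was 0.03 (interquartile range -0.10 to 0.11), against 0.06 for all genes (-0.10 to 0.24). No member passed, the lowest adjusted p being 0.173 for Pole, and 4 members (8.89%; Cdt1, Lig1, Mcm2 and Pole) had an unadjusted p under 0.05, against 14.6% of all genes. The same 4 had every relapse mouse above every vehicle mouse, where 9.72% of all genes did. In 2 members (Orc4 and Rfc4; 4.44%) every relapse mouse was below, where 4.03% of all genes did. When only these groups were fitted, Mcm2 and Pole were called higher (adjusted p = 0.0427 and 0.0312, limma) and Rfc4 lower (adjusted p = 0.0358). These 3 are 6.67% of members, near the 5.65% of all genes which that fit called. Across the 45 members the change in relapse against vehicle followed transcript length (Spearman's rho 0.51) and GC content (0.54), more than over all genes (0.26 and 0.35). These points share the same 9 libraries and are a description only. With both trends removed the changes of Pole and Mcm2 were 0.39 and 0.21.

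The comparison of relapse with iCT asked what differed between the 2 times after treatment. It shares the iCT mice with the first comparison and the relapse mice with the second. The median log2 change was 0.12 in the members (interquartile range -0.04 to 0.34), against 0.16 in all genes (-0.10 to 0.46). Of the members 29 of 45 were above 0, as were most of all genes. With median-of-ratios scaling 24 of 45 members were above 0, where 6130 of 10986 genes were. In 8 members every relapse mouse was above every iCT mouse, namely Mcm3, Mcm5, Mcm6, Prim2, Pold1, Pole, Rfc2 and Lig1, 17.8% against 16.9% of all genes. In 1 member (Fen1; 2.22%) every relapse mouse was below, against 6.33% of all genes. Over all genes 729 were called higher and 342 lower, or 490 and 514 with median-of-ratios scaling, which moved the median of all genes to 0.06 and that of the members to 0.01. With that scaling 2 members were called higher (Pold1 and Pole) and 1 lower (Fen1). Without iCT mouse 1 the 1 member called was Pole (2.22%; 7.44% of all genes), and the median of the members was 0.07. Every relapse mouse was then above both remaining iCT mice in 9 members (20%; 24.1% of all genes) and below them in 3 (6.67%; 10.1%). Without relapse mouse 1, 2 or 4 the test called 0 members, and 5.41%, 4.83% and 4.89% of all genes. Without relapse mouse 3 it called Rfc2 alone (2.22%; 5.32% of all genes). Without iCT mouse 2 it called 9 members (20%; 14.4% of all genes) and without iCT mouse 3 it called 7 (15.6%; 17% of all genes). Relative to vehicle, Pole, Pold1, Lig1 and Rfc2 had log2 changes of 0.58, 0.31, 0.28 and 0.10 in relapse and of -0.04, -0.43, -0.15 and -0.31 in iCT.

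**Figure D3:**
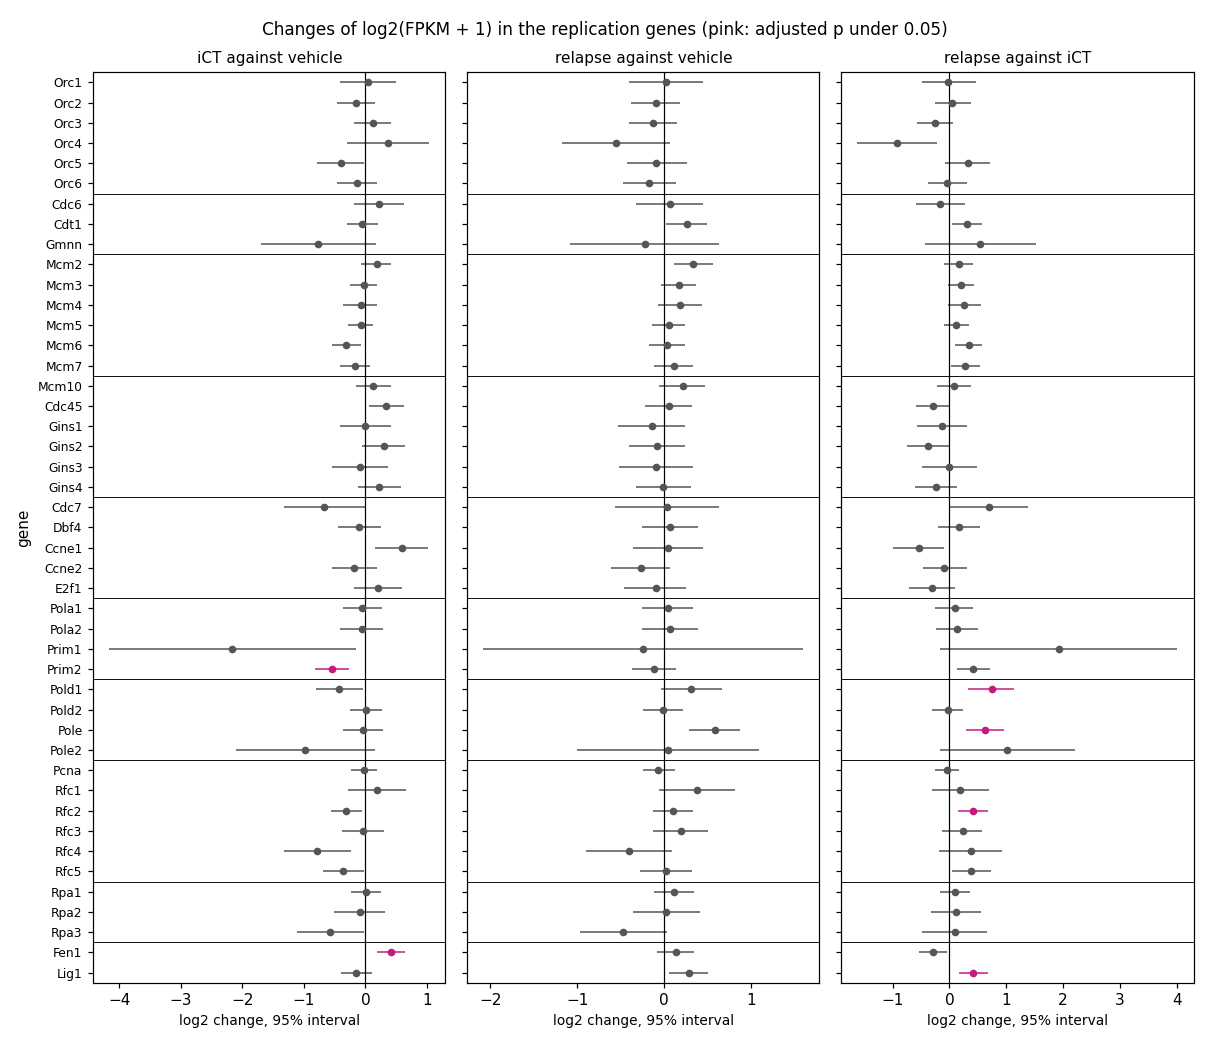
Log2 change with its 95% interval for each replication gene in iCT against vehicle, relapse against vehicle and relapse against iCT, with genes past the threshold in pink. Fen1 and Prim2 are called in the first panel and Pold1, Pole, Rfc2 and Lig1 in the third. The horizontal scales of the panels differ.

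**Figure D4:**
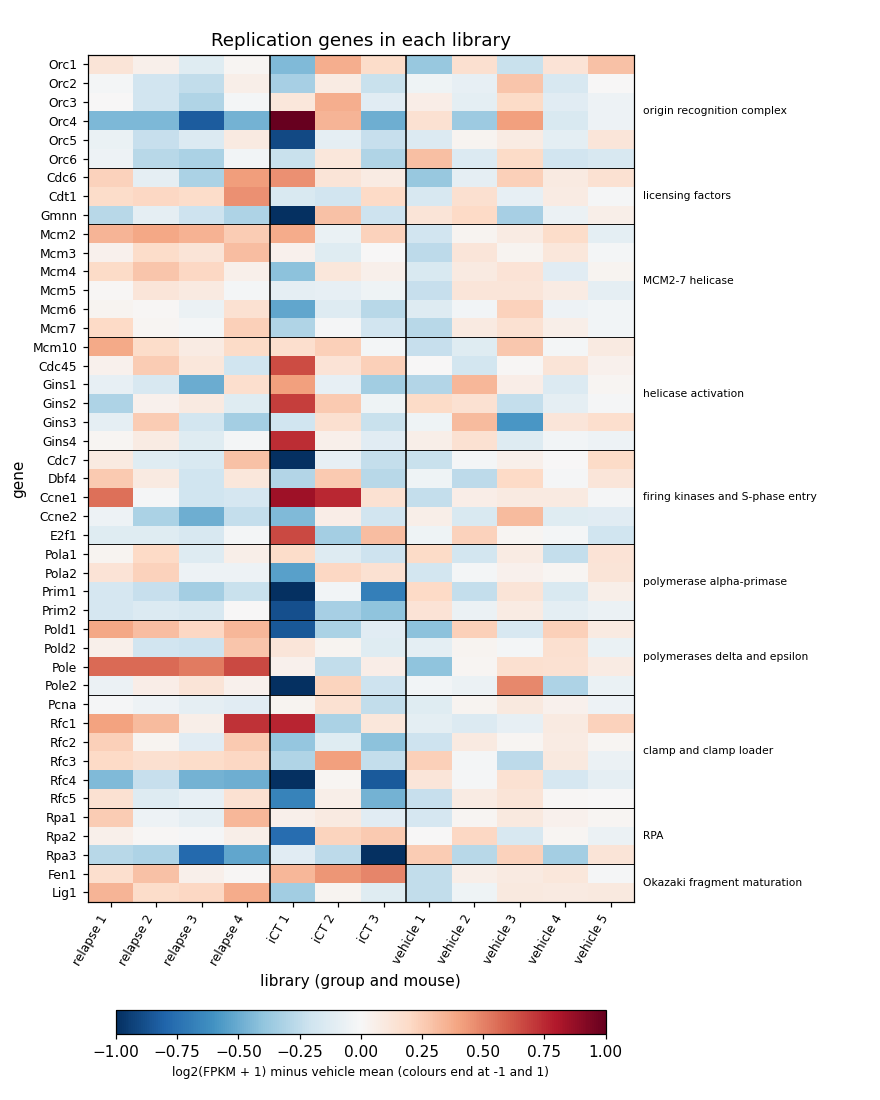
Log2 difference of each replication gene from its vehicle mean in every library, red above and blue below, in order of role, with colours ending at 1 and -1. Most cells are pale, Pole and Mcm2 are red in all 4 relapse mice, and 6 cells of iCT mouse 1 and Rpa3 in iCT mouse 3 reach the end of the colour scale.

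Regulators upstream of the set were examined by lists. Of the 26 tested regulators of S-phase entry and DREAM (27 listed), 2 rose (7.69%) and 2 fell (7.69%) in iCT against vehicle, where 3.31% of all genes were higher and 6.31% lower. Cdkn1a, which encodes the CDK inhibitor p21, had 22.9, 14.1, 19.4 and 17.3 FPKM in relapse mice 1 to 4, 101, 70.7 and 97.7 FPKM in iCT mice 1 to 3, and 14, 16, 21, 14 and 12.1 FPKM in vehicle mice 1 to 5. All iCT mice were far above all others, and relapse mice overlapped vehicle mice. Cdkn1a averaged 89.9 ± 16.7 FPKM in iCT (n = 3) and 15.4 ± 3.40 in vehicle (SD, n = 5), a log2 change of 2.48 (SE 0.19, adjusted p = 4.89e-05, limma). E2f4, the DREAM-associated E2F, rose by 0.63 (adjusted p = 0.0454), whereas Cdkn1b, which encodes p27, fell by 0.85 (adjusted p = 0.00956) and Lin52, a DREAM subunit, fell by 0.57 (adjusted p = 0.0465). In relapse against iCT 2 of the 26 (7.69%; 3.1% of all genes) were lower, Cdkn1a (-2.23, adjusted p = 0.000139) and the activator E2f2 (-0.79, adjusted p = 0.0388). Without iCT mouse 1 Cdkn1a and Cdkn1b were still called, while E2f4 (0.46, adjusted p = 0.154), Lin52 (-0.59, adjusted p = 0.0626) and E2f2 (-0.48, adjusted p = 0.0752) were not. Over the 20 alternatives Cdkn1a passed in all 20 in both comparisons, Cdkn1b in 19, E2f2 in 9, E2f4 in 6 and Lin52 in 2. The median over the list was 0 in iCT against vehicle, where all genes had -0.08.

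The median difference of the 45 members from the vehicle mean was 0.04, 0.02, -0.11 and 0.06 in relapse mice 1 to 4, -0.20, 0.06 and -0.12 in iCT mice 1 to 3, and -0.12, 0.02, 0.09, 0.01 and 0 in vehicle mice 1 to 5 on the log2 scale. The medians of all genes lay between -0.18 and 0.09. The lowest member median, -0.20, was that of the shallow library, iCT mouse 1. The relation of Cdkn1a to the members was not tested.

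**Figure D5:**
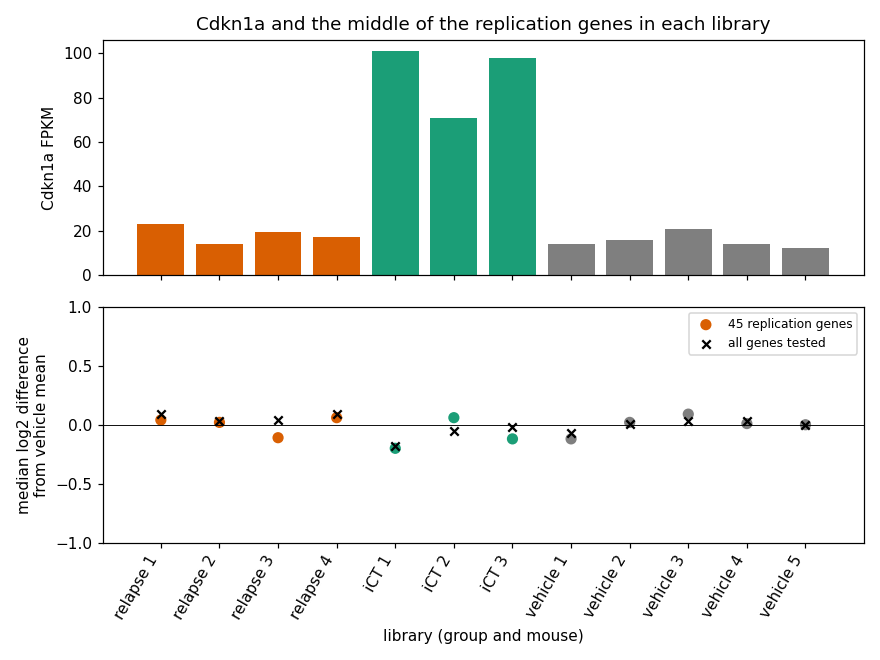
Cdkn1a in FPKM (top) and the median log2 difference of the 45 replication genes (circles) and of all genes tested (crosses) from the vehicle mean (bottom) in each library. Cdkn1a stands at 70.7 to 101 FPKM in iCT mice and at most at 22.9 elsewhere, and the circles lie between -0.20 and 0.09 in every library.

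Other fork genes gave few calls. Of 26 further origin and fork factors 0 rose and 1 fell (3.85%; 6.31% of all genes) in iCT against vehicle, Pole4, a small histone-fold subunit of polymerase epsilon. Pole4 had 45.9, 45.9, 41.4 and 47 FPKM in relapse mice 1 to 4, 30.6, 43.3 and 36.5 FPKM in iCT mice 1 to 3, and 55.8, 55.3, 59.2, 53.2 and 60.3 FPKM in vehicle mice 1 to 5. The relapse and iCT mice overlapped each other and were all below the vehicle mice, and the log2 change in iCT against vehicle was -0.62 (SE 0.11, adjusted p = 0.00597, limma). In relapse against iCT 1 of the 26 (3.85%; 6.62% of all genes) rose, Timeless, a fork protection factor, by 0.77 (SE 0.22, adjusted p = 0.0441). Timeless had 20.2, 17.1, 15.8 and 17.4 FPKM in relapse mice 1 to 4, 6.87, 9.28 and 15 FPKM in iCT mice 1 to 3, and 12.4, 14, 9.1, 13.2 and 13.7 FPKM in vehicle mice 1 to 5. All relapse mice were above all others, and the change against iCT was 0.54 (adjusted p = 0.121) without iCT mouse 1, where that of Pole4 against vehicle was -0.50 (adjusted p = 0.013). Over the 20 alternatives Timeless passed in 4 and Pole4 in 19. The medians of this list were -0.11 in iCT against vehicle, 0.13 in relapse against vehicle and 0.23 in relapse against iCT, against -0.08, 0.06 and 0.16 for all genes.

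Of 15 S-phase genes of chromatin and nucleotide supply, 1 rose (6.67%; 3.31% of all genes) in iCT against vehicle, Rrm2, the small subunit of ribonucleotide reductase. Rrm2 had 73.4, 90.6, 71.7 and 79.3 FPKM in relapse mice 1 to 4, 105, 135 and 125 FPKM in iCT mice 1 to 3, and 84.5, 81.5, 87.2, 80.7 and 88.8 FPKM in vehicle mice 1 to 5. The iCT mice were above all others, with relapse and vehicle mice overlapping. Its log2 change was 0.51 in iCT against vehicle (SE 0.10, adjusted p = 0.0127, limma) and -0.62 in relapse against iCT (SE 0.11, adjusted p = 0.00663), where it was the 1 gene of the list called lower (6.67%; 3.1% of all genes). Without iCT mouse 1 they were 0.62 (adjusted p = 0.00518) and -0.72 (adjusted p = 0.00302). None of the 3 lists had a gene called in relapse against vehicle.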

How the data were processed

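Per the labels' protocols, RNA came from an RNeasy micro kit (Qiagen) and the libraries from NEB kits. The deposited values are Cufflinks FPKM with a 95% confidence interval per gene, per the file headers. STAR, Cufflinks and mm9 are named in the submitters' processing notes without versions. Of 23070 gene symbols with 1 locus, 22932 (99.4%) overlapped the GRCm38 gene of that name, so coordinates are given on GRCm38. The annotation, the use of strand and the treatment of shared reads were not given in the sources used here, so genes that overlap others are uncertain. FPKM divides by the library total, so a change in abundant genes shifts the others. Fragments behind a value were estimated from its interval. At low values 47.8% to 51.1% came within 0.02 of whole numbers, so reads were not recovered, and these depths cover counting error only. No library pair had identical values (0 pairs).

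The log2(FPKM + 1) values of genes that reached an FPKM of 1 in 3 or more libraries entered 1 limma fit (limma 3.58.1, R 4.3.3) of all 12 libraries with group as the only term and a variance trend on mean level. P-values are two-sided and adjusted by Benjamini-Hochberg over all genes, with a threshold of 0.05. Fold changes on this scale understate those of low genes. Groups came from sample titles, and whether the mice shared batches is not given in the sources used here. Per-mouse values are given for members past the threshold, the 6 with the smallest p in each comparison, and 15 always given. Prim1, Pole2 and other members outside this rule were picked out after their values were seen. The members and lists were chosen with earlier results of these data known. Alternatives were a pseudocount of 0.1, other filters, median-of-ratios scaling, array weights (statmod 1.5.0), fits restricted to a pair of groups, a mouse-number block, omission of each library, and, added after seeing the data, removal of length and GC trends (96.2% of genes had both values). The procedure was tested on simulated data in which every group had the spread of the vehicle mice. That does not cover the wider spread of iCT or its shallow library. Promoter sequences are from RefSeq.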

Additional observations from a re-analysis of the deposited data

Results flagged for a closer look

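In 7 of 50 gene and group combinations tested (groups of 4 or 5 mice), 1 mouse stood apart from the rest of its group. The rule flags about 1 in 20 for independent values. These genes share libraries and some were picked by p in the same data, so an excess cannot be read from the count. Orc4 was 3.85 FPKM in relapse mouse 3, with the nearest relapse mouse at 5.21. Cdt1 was 82.1 FPKM in relapse mouse 4, with the nearest at 68.7. Prim2 was 40.9 FPKM in relapse mouse 4, with the nearest at 37. Rfc4 was 41.9 FPKM in relapse mouse 2, with the nearest at 36.1. Mcm6 was 277 FPKM in vehicle mouse 3, with the nearest vehicle mouse at 232. Pole was 7.15 FPKM in vehicle mouse 1, with the nearest at 9.86. Rfc2 was 108 FPKM in vehicle mouse 1, with the nearest at 126. Vehicle mouse 1 was the lowest vehicle mouse for both Pole and Rfc2, and the median of all 45 members there was -0.12 from the vehicle mean on the log2 scale, against -0.07 for all genes. Groups of 3, and so the iCT mice, were not examined in this way.

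By limma's test of relapse against iCT, the 2 times after chemotherapy differed for 4 members (8.89%), where 6.62% of all genes were higher and 3.1% lower. The log2 differences were 0.74 for Pold1, 0.62 for Pole, 0.42 for Lig1 and 0.41 for Rfc2, higher in relapse in all 4 mice than in each of the 3 iCT mice.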

How the results depend on the processing

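Of 1500 recomputed log2 changes of the 25 genes with per-mouse values, 1409 kept their side of the threshold without a counted sign change. A further 25 passed newly, 58 no longer passed and 8 changed sign. A sign change is counted only where the value being recomputed lay over 1 SE from 0 or either value was called. Some of the 1409 therefore turned sign close to 0. Among the 8 counted sign changes, Ccne2 turned to 0.08 in iCT and 0.05 in relapse, both against vehicle, with length and GC trends removed. Also counted were -0.07 for Orc4 (iCT against vehicle) and -0.01 for Gmnn (relapse against iCT) with array weights. Leaving out 1 library at a time gave -0.07 to 0.80 for Orc4, -1.3 to 0.04 for Gmnn and -0.02 to 0.48 for E2f1 in iCT against vehicle, and -0.27 to 1.07 for Gmnn in relapse against iCT, with the sign changing without iCT mouse 1. The counts below are members called, then all genes called, in iCT against vehicle (2 and 1060), relapse against vehicle (0 and 0) and relapse against iCT (4 and 1071). Without a filter 1 gene was called in relapse against vehicle and 1 member in relapse against iCT (2.22%; 4.89% of all genes). Array weights gave 0 and 457, 2 and 971, and 1 and 603. A fit of only the groups compared gave 0 and 351, 3 and 612, and 0 and 252. With length and GC trends removed 4 members (8.89%) and 1258 genes (11.4%) were called in iCT against vehicle. Leaving out 1 library gave 1 to 13 and 569 to 2722, 0 to 0 and 0 to 5, and 0 to 9 and 529 to 1855. The highest counts of members came without iCT mouse 2, and 5 genes were called in relapse against vehicle without iCT mouse 1. With mouse number as a replicate block the counts were 0 and 197, 0 and 0, and 0 and 372. Deviations of mice that share a number had correlations of r = -0.09 to 0.1. With so few mice per group these cannot show whether the numbers pair mice, and pairing is not stated. Fen1 and Prim2 each passed in 15 of 20 alternatives, Pole in 13, Pold1 in 11, and Lig1 and Rfc2 in 4 each, with adjusted p between 0.0088 and 0.164. The causes were not tested. The depth of iCT mouse 1 limits every iCT value, and 3 to 5 mice per group limit what can be called.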
